A study of Homo sapiens with 26 samples.

Results

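Chromosome 19 carries the largest group of human genes for C2H2 zinc-finger proteins, and binding of 5 expressed transcription factor constructs was described there for the 240 protein-coding genes of chromosome 19 whose symbol in GENCODE release 44 lifted to GRCh37 (hg19) is ZNF followed by digits alone. They were chosen by symbol and chromosome from 20163 protein-coding genes. No measured value entered this rule, although earlier results of these data were known when it was chosen. Chromatin immunoprecipitation with sequencing (ChIP-seq) was done in the established human foreskin fibroblast line BJ after 48 hours of ectopic expression of 1 HALO-tagged protein, and an antibody to the tag was used throughout. The constructs were FOXA1, the variants that the labels name FOXA1dbd, FOXA1nhaa and FOXA1rraa, whose changes are not described in the sources used here, and HNF4A. All of these cells were therefore fibroblasts carrying an expressed, tagged factor, and expression constructs and promoters are not described in the labels. The labels give 2 ChIP and 2 input libraries for each construct, but 1 peak list for each was analysed, so differences between constructs have no replicate check and p-values are not given. Each interval below is a 95% interval for counting error alone. It treats genes and peaks as independent, although neighbouring genes of the family can share peaks. The lists hold no read counts, so the depth behind them is unknown.

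Most genes of this family encode repressors with an array of C2H2 fingers, each finger a short fold that holds a zinc ion and contacts DNA, and many carry a KRAB domain that recruits the corepressor TRIM28 and through it the histone H3 lysine 9 methyltransferase SETDB1. The genes arose largely by tandem duplication, lie in clusters, and many of their long final exons, which encode the fingers, are themselves marked by heterochromatin. FOXA1 is a forkhead factor known for binding compacted chromatin, whose core motif is TGTTTAC or TATTTAC, and HNF4A is a nuclear receptor of liver and gut that binds CAAAGTCCA and related repeats. In the coding sequences, 181 of the 240 genes held a KRAB pattern, and the number of C2H2 fingers found by pattern had a median of 12. The most were in ZNF208, with 36, and the fewest in ZNF428, with 1. ZNF274 could not be read in frame from the annotation and has no finger count.

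The sequences under the peaks that the results turn on are shown first, all from the plus strand of hg19 and read from the GRCh37 genome. The highest-scoring FOXA1 peak in a window of these genes (score 609) lay in the flank beyond the end of ZNF543, and its central 200 bp held neither exact forkhead core. It held CCATAAACAA at 2 places, whose other strand contains TGTTTAT, which differs from TGTTTAC in the last base only.
ZNF543, FOXA1, chr19:57847111-57847310: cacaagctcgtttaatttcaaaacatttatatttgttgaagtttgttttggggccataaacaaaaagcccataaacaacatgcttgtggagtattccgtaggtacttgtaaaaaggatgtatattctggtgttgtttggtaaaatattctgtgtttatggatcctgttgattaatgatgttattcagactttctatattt
The highest-scoring row of the FOXA1dbd list in these windows (score 242, the next being 138) lay 930 bp into ZNF880, in the windows of both ZNF610 and ZNF880, and held a forkhead core, shown in capitals. It has the coordinates of a FOXA1 row and is the 1 row of the 29 whose peak name begins with WT_FOX, so it may not be a FOXA1dbd peak.
ZNF610 and ZNF880, FOXA1dbd, chr19:52874176-52874375: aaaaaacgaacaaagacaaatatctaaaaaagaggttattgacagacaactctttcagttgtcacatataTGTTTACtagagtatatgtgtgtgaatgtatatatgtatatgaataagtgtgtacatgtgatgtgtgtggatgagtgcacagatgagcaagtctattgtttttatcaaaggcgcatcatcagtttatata

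Of the FOXA1 peaks in these windows, 14 were overlapped by all 3 variants and 3 of those 14 held a forkhead core, and these 3 are shown. At each of them the FOXA1rraa row is a row of the FOXA1nhaa list, so the overlap with both variants rests on 1 row. The core is in capitals, and GTAAATA at ZNF506 is TATTTAC read from the minus strand.
ZNF808, FOXA1 (score 238), chr19:53034989-53035188: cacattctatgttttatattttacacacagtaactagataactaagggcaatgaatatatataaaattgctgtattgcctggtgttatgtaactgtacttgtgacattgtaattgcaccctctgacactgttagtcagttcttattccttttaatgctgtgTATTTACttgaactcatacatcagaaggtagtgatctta
ZNF506, FOXA1 (score 182), chr19:19901060-19901259: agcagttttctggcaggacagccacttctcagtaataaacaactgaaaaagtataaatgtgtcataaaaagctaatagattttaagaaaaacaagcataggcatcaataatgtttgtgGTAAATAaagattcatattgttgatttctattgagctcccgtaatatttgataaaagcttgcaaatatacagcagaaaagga
ZNF430, FOXA1 (score 141), chr19:21206605-21206804: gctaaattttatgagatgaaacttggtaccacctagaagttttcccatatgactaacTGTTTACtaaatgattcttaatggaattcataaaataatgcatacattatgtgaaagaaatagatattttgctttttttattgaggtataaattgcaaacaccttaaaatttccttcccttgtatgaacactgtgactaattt
A single HNF4A peak of the 247 in the windows was overlapped by all 4 FOXA1 constructs. It lay in an intron of ZNF507 and held a forkhead core, in capitals, and was chosen for display after its values were seen.
ZNF507, HNF4A (score 74), chr19:32864785-32864984: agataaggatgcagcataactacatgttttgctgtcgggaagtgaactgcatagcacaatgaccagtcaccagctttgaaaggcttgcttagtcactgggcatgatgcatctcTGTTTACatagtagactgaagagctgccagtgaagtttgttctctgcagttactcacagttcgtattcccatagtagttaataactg
The HNF4A peaks at the starts of ZNF776 and ZNF233 had the highest scores among start peaks of the family after ZNF699. The parts outside annotated exons are shown, with the HNF4 core of ZNF776 in capitals.
ZNF776, HNF4A (score 776), chr19:58258698-58258997: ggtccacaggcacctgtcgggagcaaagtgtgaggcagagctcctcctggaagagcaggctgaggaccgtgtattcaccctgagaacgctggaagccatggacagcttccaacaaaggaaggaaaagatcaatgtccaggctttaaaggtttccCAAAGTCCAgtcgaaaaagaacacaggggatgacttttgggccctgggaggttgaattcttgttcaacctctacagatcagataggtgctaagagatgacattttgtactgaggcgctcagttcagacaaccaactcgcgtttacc
ZNF233, HNF4A (score 755), chr19:44763973-44764032: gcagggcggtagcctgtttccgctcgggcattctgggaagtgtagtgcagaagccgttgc
The highest-scoring start peak, that of ZNF699 (score 858), lay over annotated exons in its central part and is not printed.

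FOXA1 was found at 112 of the 240 genes, or 46.7% (interval 40.5 to 53.0%), counting any peak in the gene body or 5 kb either side, while 62.3% of all protein-coding genes had such a peak. For FOXA1nhaa the count was 98 (40.8%, 34.8 to 47.1%) against 56.3% of all genes. For FOXA1rraa it was 91 (37.9%, 32.0 to 44.2%) against 49.8% of all genes. The FOXA1rraa share was 29.2% without the rows shared with the FOXA1 list, with rows of the FOXA1nhaa list still counted. The share of all genes without those rows was not computed. For FOXA1dbd the count was 25 (10.4%, 7.16 to 14.9%) against 35.5% of all genes. All 4 FOXA1 constructs thus had a peak at a smaller share of these genes than of all protein-coding genes, and none of the 4 intervals reached the share of all genes. HNF4A went the other way, with a peak at 173 of the 240 genes (72.1%, 66.1 to 77.4%) against 65.3% of all genes. At the 120 genes whose window touches no other window of the family, the HNF4A share was 65.8%, near that of all genes. The FOXA1 constructs stayed below their shares of all genes there, at 44.2% for FOXA1, 10% for FOXA1dbd, 35% for FOXA1nhaa and 31.7% for FOXA1rraa. All genes were not restricted in this way. The intervals treat genes as independent, although 30 of the 215 FOXA1 peaks and 50 of the 247 HNF4A peaks lay in 2 or more windows. The median gene of the family had 0 peaks of each FOXA1 construct and 1 of HNF4A, and the highest number in a window was 9 for FOXA1, 3 rows for FOXA1dbd, 7 for FOXA1nhaa and FOXA1rraa, and 5 for HNF4A.

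The number of peaks kept in a list moved these shares. When every list was cut to 28831 peaks by score, the length of the FOXA1dbd list, FOXA1 was found at 12.5% of the genes, FOXA1nhaa at 14.6% and FOXA1rraa at 15.8%, all nearer to the 10.4% of FOXA1dbd, and HNF4A at 59.6%. With the down-sampled FOXA1 list the share was 20.8%. Shares of all protein-coding genes were not computed with shortened lists, so these values cannot be set beside those of the full lists. With the higher-scoring 50% of each list the order of the full lists was kept, with FOXA1 at 31.25% and FOXA1dbd at 4.58%, but with equal numbers FOXA1rraa and FOXA1nhaa stood above FOXA1. HNF4A had the highest share in the full lists and with either cut.

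**Figure D1:**
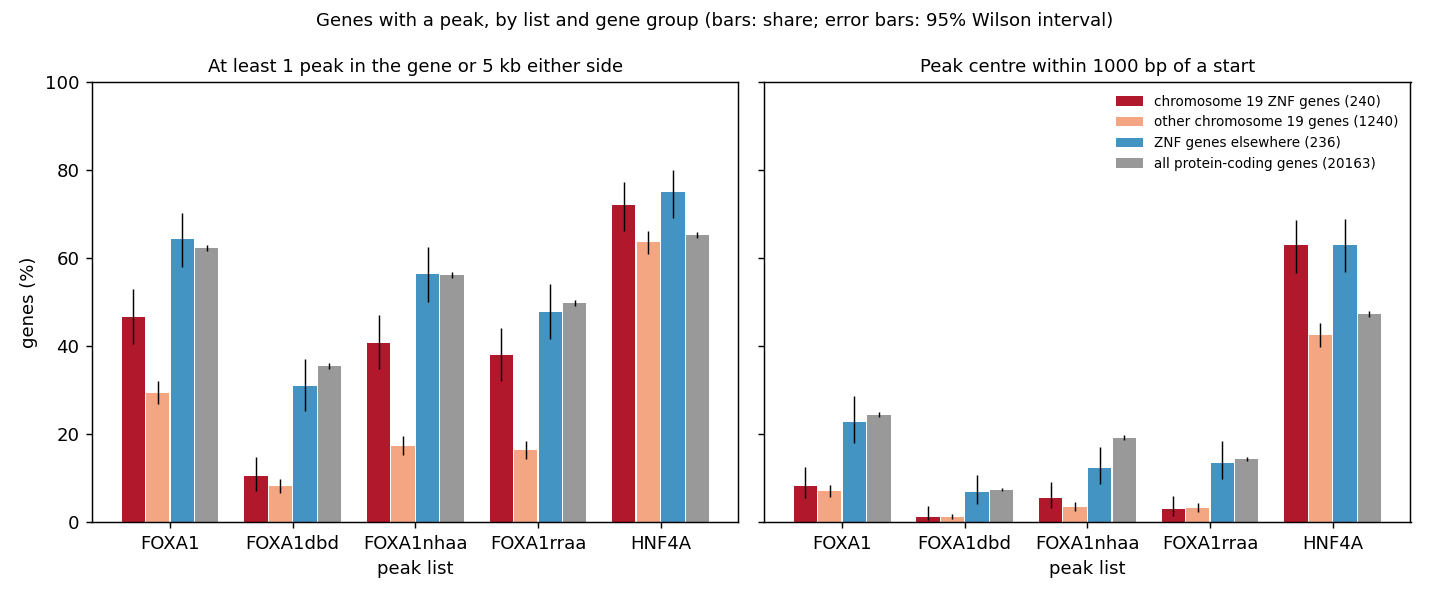
Share of genes (%, y axis) with at least 1 peak in the gene body or 5 kb either side and with a peak centre within 1000 bp of an annotated start, by peak list (x axis) and gene group; bars are shares and error bars 95% Wilson intervals. The HNF4A bar of the chromosome 19 ZNF genes stands at 72.1% for any peak and 62.9% at the start, and the FOXA1 bar falls from 46.7% to 8.33%.

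The contrast looked different within the chromosome. Chromosome 19 held 0.634% of the FOXA1 peaks and 4.55% of the HNF4A peaks of the genome. Against the other 1240 protein-coding genes of the chromosome, the ZNF genes had a peak more often, with 46.7% against 29.4% for FOXA1, 40.8% against 17.3% for FOXA1nhaa, 37.9% against 16.4% for FOXA1rraa, 10.4% against 8.15% for FOXA1dbd and 72.1% against 63.6% for HNF4A, although the intervals overlapped for FOXA1dbd and, slightly, for HNF4A. The windows of the ZNF genes were longer, with a median of 35.5 kb against 24.0 kb, so peaks were also counted per Mb of window. FOXA1 reached 23.3 peaks per Mb in the 9.22 Mb of ZNF windows against 17.5 over the other genes, a ratio of 1.33 (1.13 to 1.56), which was 1.02 with the equal number of highest-scoring peaks. FOXA1nhaa reached 15.0 against 8.75 peaks per Mb (ratio 1.71, 1.38 to 2.11) and FOXA1rraa 13.1 against 7.49 (ratio 1.75, 1.39 to 2.19). FOXA1dbd did not differ beyond counting error, with 3.15 against 3.63 peaks per Mb (ratio 0.866, 0.555 to 1.31), and with the gene body alone the ratio was 1.18. HNF4A was thinner in the ZNF windows, with 26.8 against 43.7 peaks per Mb (ratio 0.613, 0.533 to 0.703).

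Against the 236 ZNF genes of other chromosomes, whose median window was 36.2 kb, the FOXA1 constructs were thinner on chromosome 19. For FOXA1 the ratio of peaks per Mb was 0.289 (0.248 to 0.335), and FOXA1nhaa had nearly the same, 0.288 (0.238 to 0.346). FOXA1dbd had 0.236 (0.154 to 0.352) and FOXA1rraa 0.350 (0.285 to 0.429). For HNF4A the ratio was 0.883, with an interval of 0.750 to 1.04 that included equality. HNF4A start peaks were also found at like shares in both, with 62.9% of the chromosome 19 ZNF genes and 63.1% of the others. Another 22 zinc-finger genes of chromosome 19 with other symbols, such as ZFP, ZSCAN and PEG3, had a FOXA1 peak at 12 genes and an HNF4A peak at 13.

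The 2 factors met the genes at different places. HNF4A had a peak centre within 1000 bp of an annotated transcription start at 151 of the 240 genes, or 62.9% (56.6 to 68.8%), against 47.3% of all protein-coding genes and 42.6% of the other genes of the chromosome. FOXA1 did so at 20 genes (8.33%, 5.46 to 12.5%) against 24.4% of all genes, FOXA1nhaa at 13 (5.42%) against 19.2%, FOXA1rraa at 7 (2.92%) against 14.3% and FOXA1dbd at 3 (1.25%) against 7.41%. Over the other genes of the chromosome the shares were 7.02% for FOXA1, 3.39% for FOXA1nhaa, 3.15% for FOXA1rraa and 1.21% for FOXA1dbd. The low FOXA1 shares were thus near those of the rest of the chromosome. Of the 247 HNF4A peaks in the windows, 192 (77.7%) centred within 1000 bp of a start of a family gene and 126 (51.0%) within 250 bp. Counting the starts of any protein-coding gene, 82.2% of these HNF4A peaks lay at a start (76.9 to 86.5%), against 51.6% of those in windows of the other genes of the chromosome (48.96 to 54.3%) and 57.4% of those at ZNF genes elsewhere (52.4 to 62.3%). For FOXA1 peaks that share was 10.2% in these windows, 16.0% over the other genes of the chromosome and 9.52% at ZNF genes elsewhere. HNF4A thus had fewer peaks per Mb in these windows than over the rest of the chromosome, but a larger share of them sat at starts.

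The FOXA1 peaks of the family lay mainly in introns, with 130 of 215 (60.5%), and 38 were in the flanks, 25 in exons outside the coding sequence or of non-coding transcripts, and 21 at a family start. Introns held 24 of the 29 FOXA1dbd peaks, 88 of the 138 FOXA1nhaa peaks and 80 of the 121 FOXA1rraa peaks. The length of the windows in introns, flanks and exons was not measured, so the counts by class have no expected share beside them. FOXA1 peaks centred a median of 6025 bp from the nearest family start. The same distance was 4689 bp in the FOXA1dbd list, 6034 bp in that of FOXA1nhaa and 5882 bp in that of FOXA1rraa, but 237 bp in the HNF4A list. The longest coding exon, which in these genes usually encodes the finger array and had a median length of 1533 bp, held the centre of no FOXA1, FOXA1rraa or HNF4A peak. It held 1 FOXA1dbd peak and 4 FOXA1nhaa peaks, those in ZNF284, ZNF888, ZNF582 and ZNF749, none of which overlapped a FOXA1 peak. These 4 genes are named after their values were seen.

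**Figure D2:**
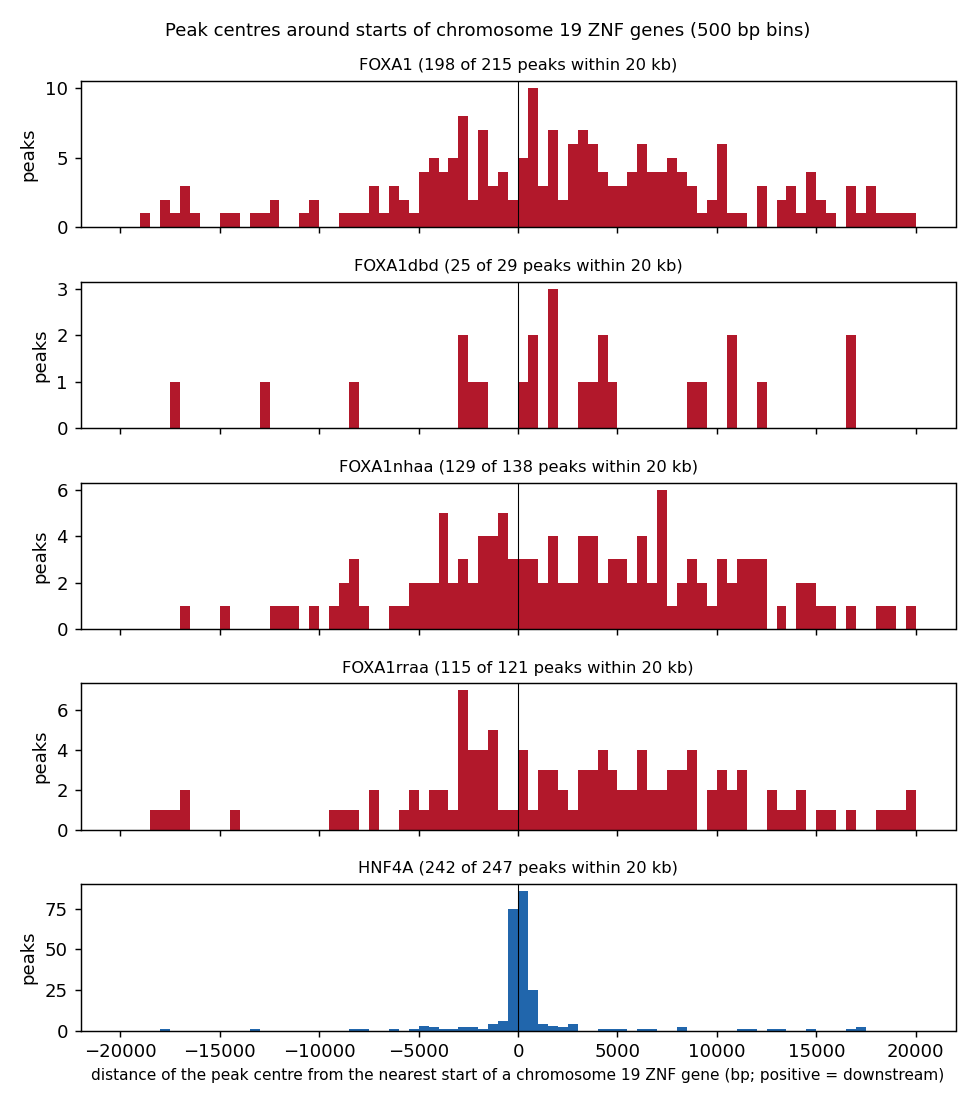
Number of peaks (y axis) in 500 bp bins of the distance of the peak centre from the nearest start of a chromosome 19 ZNF gene (x axis, bp, positive downstream), 1 panel for each list. HNF4A peaks pile up at the start, with 126 of 247 within 250 bp, while FOXA1 peaks spread over the whole range, with 4 of 215 within 250 bp.

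At the start, the highest-scoring HNF4A peak of each of the 151 genes centred between 648 bp upstream and 943 bp downstream, with a median of 30 bp downstream. Of the 151 genes, 103 had it within 250 bp of the start. Its score, the authors' own value for the peak, ran from 22 to 858 with a median of 108. The 8 highest belonged to ZNF699 (858, 238 bp downstream), ZNF776 (776, 639 bp downstream), ZNF233 (755, 47 bp downstream), ZNF350 (686, 348 bp downstream), ZNF581 (659, 312 bp upstream), ZNF329 (537, 666 bp downstream), ZNF564 (534, 264 bp downstream) and ZNF565 (507, 131 bp upstream). The fold enrichment that the authors' caller gave was 16.6 at ZNF699, 22.4 at ZNF776, 19.7 at ZNF233 and 20.5 at ZNF350. The ZNF233 peak also lay in the window of its neighbour ZNF235, and the ZNF565 peak is also the start peak of ZNF146, 106 bp downstream of that start. All 8 encode C2H2 zinc-finger proteins, and ZNF350 is known as a BRCA1-binding repressor also called ZBRK1. The median score of the 192 start peaks was 99, and that of the other 55 HNF4A peaks of the family was 92.

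Few HNF4A peaks of the family held the exact HNF4 core. CAAAGTCCA was found on either strand in the central 200 bp of 2 of the 247 HNF4A peaks of the family (0.810%, 0.222 to 2.90%), those at ZNF776, printed above, and at ZNF473 (score 41), a gene named after its values were seen. Over the whole HNF4A list the share was 0.992%. In the promoters of the family, taken as 250 bp before to 50 bp after the start, CAAAGTCCA occurred in 1 of 240 (0.417%) and in 0.327% of all promoters. Promoters of family genes with an HNF4A start peak had a median of 21 CpG dinucleotides in those bases and those without had 18, against 28 and 13 over all protein-coding genes. The share with an HNF4A start peak was 67.2% among the 128 genes at or above the median CpG count of the family (58.7 to 74.7%) and 58.0% among the 112 below it (48.8 to 66.8%), and these intervals overlap. Starts within 1 kb of a divergent neighbour had an HNF4A peak at 18 of 24 genes, and the other starts at 133 of 216.

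Few starts held a FOXA1 peak, and most of these peaks centred over 250 bp from the start. The best FOXA1 start peak of the 20 genes centred between 911 bp upstream and 982 bp downstream, with a median of 367.5 bp downstream and 4 genes within 250 bp. The highest were at ZNF587 (score 273, 911 bp upstream), ZNF566 (214, 834 bp downstream), ZNF302 (209, 21 bp upstream) and ZNF45 (199, 928 bp downstream). Of the 20 genes, 16 also had an HNF4A start peak, which is 10.6% of the 151 genes with an HNF4A start peak (6.63 to 16.5%), and among the 89 genes without one, 4 had a FOXA1 start peak (4.49%, 1.76 to 10.99%). No gene had a start peak of all 5 constructs. ZNF383, ZNF224, ZNF233 and ZNF548 had one of 4 constructs, HNF4A among them in each, and are named after their values were seen. At ZNF224 the FOXA1rraa row is a row of the FOXA1 list, and at the others a row of the FOXA1nhaa list. It is therefore not a separate measurement at any of them. At ZNF233 the row that the FOXA1nhaa and FOXA1rraa lists share, of score 146, centred 828 bp upstream and the FOXA1 peak 823 bp upstream, while the HNF4A peak centred 47 bp downstream.

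A peak of at least 1 FOXA1 construct and a peak of HNF4A were both found at 112 genes (46.7%, 40.5 to 53.0%), against 50.02% of all protein-coding genes. FOXA1 constructs alone were found at 32 genes (13.3%, against 17.8%) and none of the 5 at 35 (14.6%, against 16.9%). HNF4A alone was found at 61 genes (25.4%, 20.3 to 31.3%), above the 15.3% of all genes. Within the genes, the peaks themselves seldom overlapped. Of the sites, 2 of the 215 FOXA1 peaks (0.930%, 0.255 to 3.33%) overlapped an HNF4A peak by 1 bp or more, against 1.68% over the whole FOXA1 list. Read from the other side, these were 0.810% of the 247 HNF4A peaks (0.222 to 2.90%), against 6.76% over the whole HNF4A list. The first of the 2 FOXA1 peaks lay at the start of ZNF564 (score 124) and the other is the ZNF507 intron peak (score 112).

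In ZNF507, a gene without a KRAB pattern, this intron site stood in a window of many peaks. FOXA1 had 7 peaks in that window (6 by peak name), FOXA1dbd 1, FOXA1nhaa 5, FOXA1rraa 7 and HNF4A 1. The site where all 5 lists overlapped centred about 8 kb from the nearest start, with the FOXA1dbd summit 8097 bp and the HNF4A summit 8053 bp upstream of it. All 7 FOXA1rraa rows of the window are rows of other lists, 5 of the FOXA1nhaa list and 2 of the FOXA1 list, so they are not separate measurements.

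The variants recovered the FOXA1 sites of the family to different degrees. Of the 215 FOXA1 peaks, 71 overlapped a FOXA1nhaa peak (33.0%, 27.1 to 39.6%), against 39.7% over the whole FOXA1 list. FOXA1dbd overlapped 29 (13.5%, 9.56 to 18.7%), against 17.3%. FOXA1rraa overlapped 86 (40.0%, against 39.9% over the list), but 46 (21.4%, 16.4 to 27.4%, against 24.96%) without the rows that are FOXA1 rows. In all, 96 FOXA1 peaks (44.7%, 38.2 to 51.3%) were overlapped by no variant, against 41.5% over the list. Of these shares, the interval of FOXA1nhaa did not reach that of the list.

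Read from the variants, 28 of the 29 FOXA1dbd peaks overlapped a FOXA1 peak (96.6%, against 96.2% of the list). Of the 29 rows, 4 have the coordinates of a FOXA1 row and 17 (58.6%, against 44.5% over the list) share a start or an end with one, so the lists may not be independent. FOXA1nhaa did so with 69 of 138 peaks (50%, 41.8 to 58.2%), below the 58.4% of its whole list, and FOXA1rraa with 84 of 121 (69.4%, 60.7 to 76.9%), below the 86.8% of its list. At the gene level, 25 genes had a FOXA1nhaa peak and no FOXA1 peak (10.4%, 7.16 to 14.9%, against 4.77% of all protein-coding genes). For FOXA1rraa without FOXA1 there were 14 (5.83%, 3.51 to 9.55%, against 1.10%) and for FOXA1dbd without FOXA1 there was 1 (0.417%, against 0.327%). The FOXA1rraa rows of these windows were a mixture. Of 121, 40 were rows of the FOXA1 list, 55 were rows of the FOXA1nhaa list and 26 (21.5%, against 9.46% over the list) were rows of neither. All 26 carry a peak name that begins with Nonspecific_FOX, so what the deposited FOXA1rraa list shows of this variant alone cannot be told apart from the lists it draws on.

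The forkhead core occurred in the family's FOXA1 peaks at 45 of 215 (20.9%, 16.0 to 26.9%), against 18.2% of the whole list. For FOXA1dbd it was 6 of 29, for FOXA1rraa 22 of 121 (18.2%, 12.3 to 26.0%, against 20.04%) and for FOXA1nhaa 14 of 138 (10.1%, 6.14 to 16.3%, against 13.6%). For HNF4A it was 5 of 247 (2.02%, against 3.25%). The ZNF543 peak, printed above, had the highest score and no exact core. That row, chr19:57846952-57847469, is the same in the FOXA1 and the FOXA1rraa list and was overlapped by no FOXA1dbd or FOXA1nhaa peak. Within each list the median score of the family's peaks, set against that of the whole list, was 124 against 124 for FOXA1, 54 against 61 for FOXA1dbd, 84 against 89 for FOXA1nhaa, 84 against 106 for FOXA1rraa and 99 against 99 for HNF4A.

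Along the chromosome, genes of the family at most 500 kb apart formed 20 runs, of which the 8 runs with at least 10 genes held 218 of the 240 genes. HNF4A start peaks ranged over these 8 runs from 18 of 37 genes in the run from ZNF101 to ZNF254 (19.8 to 24.3 Mb) to 19 of 25 in the run from ZNF653 to ZNF791 (11.6 to 12.8 Mb). HNF4A density was lowest in the same ZNF101 to ZNF254 run, at 15.6 peaks per Mb, and highest in the runs from ZNF575 to ZNF180 (44.5) and from ZNF628 to ZNF835 (44.7). The median promoter of the ZNF101 to ZNF254 run held 10 CpG dinucleotides, the fewest of the 8 runs, and its part in the HNF4A counts was not tested. FOXA1 density ran from 2.48 peaks per Mb in the ZNF628 to ZNF835 run, which had 1 FOXA1 peak over 16 genes, to 35.5 in the run from ZNF264 to ZNF446. The other 6 runs lay between 19.8 and 30.7 FOXA1 peaks per Mb. In the ZNF628 to ZNF835 run FOXA1nhaa had 7 peaks and HNF4A 18, so this run was nearly without FOXA1 peaks but not without peaks. FOXA1dbd had no peak in the gene windows of the runs from ZNF653 to ZNF791 and from ZNF264 to ZNF446, which hold 66 genes together and 37 genes with a FOXA1 peak. In the ZNF264 to ZNF446 run, a FOXA1 peak in the flank of ZNF17 was overlapped by a FOXA1dbd row lying outside the windows.

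**Figure D3:**
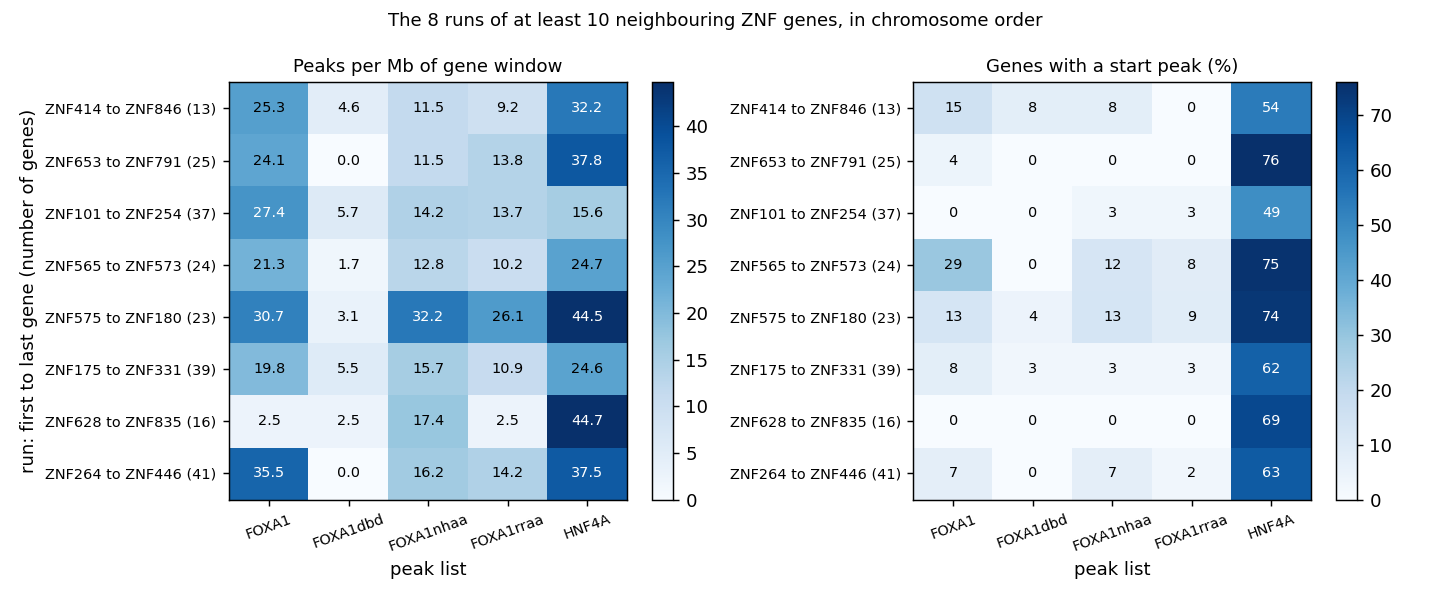
Heat maps of the 8 runs of at least 10 neighbouring ZNF genes (rows, in chromosome order) by peak list (columns), with peaks per Mb of gene window on the left and the share of genes with a start peak (%) on the right; darker cells are higher. The run from ZNF628 to ZNF835 has 2.48 FOXA1 peaks per Mb beside 44.7 for HNF4A, and the run from ZNF101 to ZNF254 has the lowest HNF4A value, 15.6.

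The FOXA1 peaks of the ZNF101 to ZNF254 run were uneven. The neighbouring genes ZNF430, ZNF714 and ZNF431, whose bodies span chr19:21203440-21378856, had 8, 8 and 9 FOXA1 peaks, and no gene of the family had more than ZNF431. Those of ZNF714 are 7 by peak name, as 1 is in pieces. With 167 kb of window, 7.86% of the run, these 3 genes held 25 of its 58 FOXA1 peaks (43.1%), 7 of its 12 FOXA1dbd peaks, 12 of its 30 FOXA1nhaa peaks and 9 of its 29 FOXA1rraa peaks, but 2 of its 33 HNF4A peaks. ZNF431 had 2 FOXA1dbd, 5 FOXA1nhaa, 3 FOXA1rraa and no HNF4A peaks. ZNF714 had 3, 3, 5 and 1 of them, and ZNF430 had 2, 4, 1 and 1. None of the 3 starts held a FOXA1 peak, while those of ZNF714 (score 103) and ZNF430 (score 153) held an HNF4A peak. The block was singled out after the values were seen.

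In the same run, 10 of 37 genes had no peak of any construct. A stretch of 7 neighbouring genes without a peak, the longest of the family, ran from ZNF676 to ZNF728 (chr19:22361891-23185978) over 399 kb of window, and it includes ZNF98, whose 151 kb window was the longest without a peak. ZNF208, the gene with 36 fingers (88.0 kb), and ZNF100 (54.8 kb) also had none and lie nearby. Outside this run, ZNF578 (73.3 kb), ZNF541 (62.5 kb) and ZNF333 (53.9 kb) were the longest windows without a peak. Over the family, the 35 genes without a peak had a median window of 37.4 kb and the 205 with one 34.6 kb. Reads that map to several near-identical genes can be lost or divided before peaks are called, and how they were treated is not given in the sources used here.

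**Figure D4:**
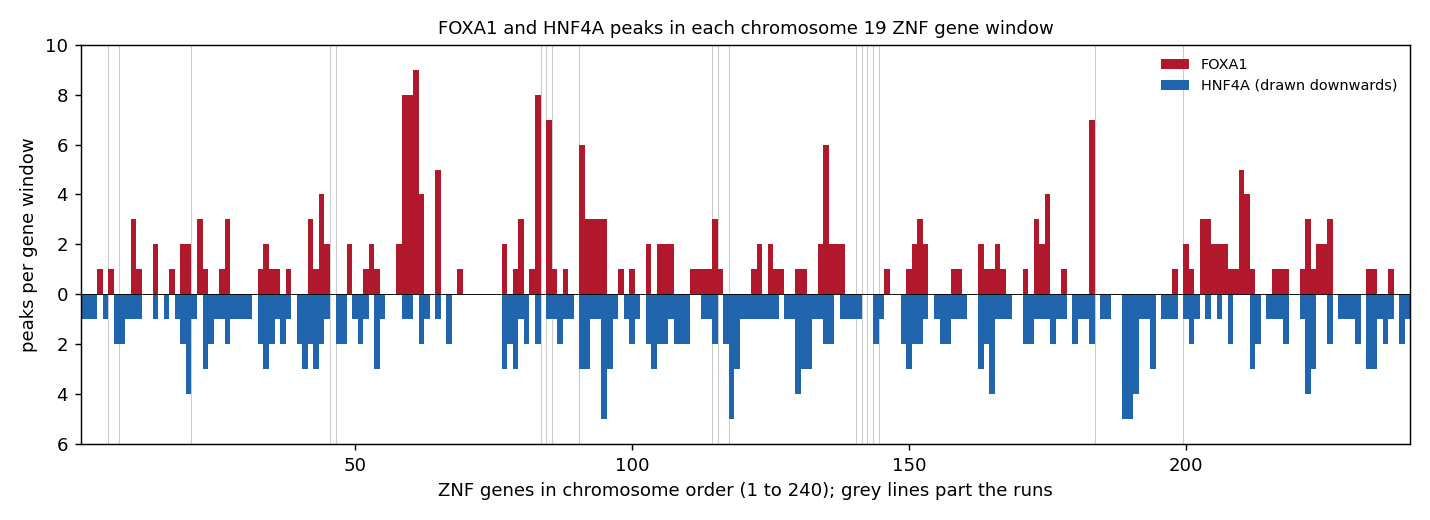
Peaks for each of the 240 ZNF genes in chromosome order (x axis), FOXA1 upwards and HNF4A downwards (y axis, peaks per gene window); grey lines part the runs. FOXA1 reaches 9 peaks at ZNF431, next to ZNF714 with 8 (7 by peak name), while HNF4A stays at 5 or fewer.

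The genes with the most peaks over the 5 lists were ZNF235 and ZNF507 with 21 each, ZNF714 with 20, and ZNF254 and ZNF431 with 19 each. When FOXA1rraa rows also found in the FOXA1 or FOXA1nhaa list were not counted, ZNF235, ZNF254 and ZNF431 had 16 each, ZNF714 15 and ZNF507 14. ZNF235 had 6 FOXA1, 7 FOXA1nhaa, 6 FOXA1rraa and 2 HNF4A peaks and no FOXA1dbd peak, and some of these lay in windows shared with its neighbours. ZNF254 had 8 FOXA1, 1 FOXA1dbd, 3 FOXA1nhaa, 5 FOXA1rraa and 2 HNF4A peaks, with an HNF4A start peak of score 455. ZNF675 and ZNF432, with 3 FOXA1 and 2 FOXA1dbd peaks each, were among the few with more than 1 FOXA1dbd peak. ZNF331 had 7 FOXA1 and 2 FOXA1dbd rows, which by peak name are 6 FOXA1 peaks and 1 FOXA1dbd peak in pieces, and the 3 FOXA1dbd rows of ZNF714 are likewise 2 by name. ZNF83 went against the order of the lists, with 1 FOXA1 peak, 4 FOXA1nhaa peaks and 4 HNF4A peaks. HNF4A reached its maximum of 5 peaks at ZNF529, ZNF575, ZNF580 and ZNF581. ZNF580 and ZNF581 overlap and share peaks, and ZNF575, ZNF580 and ZNF581 had no peak of a FOXA1 construct and no KRAB pattern. ZNF536, a gene of the nervous system named after its values were seen, had the longest window, 498.7 kb, and 3 FOXA1nhaa peaks, 1 FOXA1rraa peak and no other.

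The genes were also divided by what they encode. A FOXA1 peak was found at 94 of the 181 genes with a KRAB pattern (51.9%, 44.7 to 59.1%) and at 18 of the 59 without one (30.5%, 20.3 to 43.1%), while their median windows were 36.5 kb and 27.6 kb. FOXA1nhaa had 82 of 181 and 16 of 59, FOXA1rraa 70 of 181 and 21 of 59, and FOXA1dbd 19 of 181 and 6 of 59. HNF4A start peaks were found at 112 of the 181 (61.9%) and 39 of the 59 (66.1%). Window length itself moved with FOXA1, at 63 of the 120 genes with a longer window (52.5%, 43.6 to 61.2%) and 49 of the 120 with a shorter one (40.8%, 32.5 to 49.8%), and its part in the KRAB contrast was not tested. With the genes divided at the median finger count, FOXA1 was found at 57 of 116 above it and 55 of 123 at or below it.

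The proteins through which KRAB zinc fingers act were looked at by the same rules, in a list of 18 genes for the corepressor, its partners and heterochromatin proteins. A FOXA1 peak was found at 15 of the 18, a FOXA1dbd peak at 14, a FOXA1nhaa peak at 13, a FOXA1rraa peak at 13 and an HNF4A peak at 15. In the same order, the shares of all protein-coding genes were 62.3, 35.5, 56.3, 49.8 and 65.3%, and the windows of the 18 were longer, with a median of 55.7 kb against 37.2 kb. Start peaks were found at 10, 5, 8, 7 and 13 of the 18, against 24.4, 7.41, 19.2, 14.3 and 47.3% of all genes. TRIM28, the corepressor itself and also a gene of chromosome 19, had no FOXA1 construct peak and 1 HNF4A peak, at its start (score 82). SETDB1 had 3 FOXA1 peaks, 1 FOXA1dbd peak, 2 FOXA1nhaa peaks and 1 HNF4A peak, none at its start. ATF7IP, the partner of SETDB1, had 28 FOXA1 peaks and no HNF4A peak in 147 kb. PPHLN1, a subunit of the HUSH silencing complex, had 38 FOXA1 peaks and 4 HNF4A peaks in 231 kb. HDAC1, a histone deacetylase, had 8 HNF4A peaks and none of a FOXA1 construct, and the DNA methyltransferase DNMT1, on chromosome 19 as well, had 9 HNF4A peaks (highest score 717) and 4 FOXA1 peaks.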

How the data were processed

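Peak lists of 5 constructs, 1 each, were analysed, and groups came from the sample titles. The submitters' processing notes name Bowtie2 2.3.4.1, Picard, GATK 4.2.6.0, bedtools 2.27.1, MACS2 2.2.7.1 and deepTools 3.5.0 with the build hg19, in no stated role. Whether peaks were called on pooled libraries is not given in the sources used here. The deposited FOXA1 lists give a score per peak. The other deposited lists give a score, a fold enrichment (a ratio), −log10 p-values and −log10 q-values and the summit offset, all as the authors' caller wrote them and comparable within a list only. Samples of HALO-tagged H2B were not used here.

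Rows with equal coordinates were counted as 1 peak, and pieces of a named peak with different coordinates were counted apart. A gene had a peak when a peak shared 1 bp with its body or 5 kb either side, and a start peak when the peak centre lay within 1000 bp of any annotated start of GENCODE 44 lifted to GRCh37. The centre was the summit, or the midpoint for FOXA1 rows and for rows whose summit lay beyond their end. Peaks were divided by the merged window length for a density. Shares have Wilson intervals and density ratios exact conditional intervals. Fingers were counted in translated coding sequences of the annotation, by a pattern of cysteines and histidines. Cores were searched on both strands. Python 3.11.15, pandas 2.3.3, scipy 1.17.1 and pysam 0.24.0 were used, and the counting was tested on simulated data.

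The genes and lists were chosen with earlier results of these data known. Named genes were the 4 with the most peaks and the one with the highest-scoring peak in each list, the 4 with the most peaks over the lists, the 8 highest HNF4A and 4 highest FOXA1 start peaks, the 6 longest windows without a peak, and the most and fewest fingers. A sequence that this rule would show is not reported here. The other settings tried were the window, the start distance, the start definition, the list length, merged rows, peak-name prefixes, shared rows and the gap between neighbours. Genes whose window touches no other window of the family were also counted alone.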

Additional observations from a re-analysis of the deposited data

How the results depend on the processing

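Of 148 values recomputed under other settings, 33 moved, where a density ratio had to leave its 95% interval and any other value had to change by over 1.5 times. The FOXA1dbd density ratio against the other genes of the chromosome lay between 0.631 and 1.18, on either side of equality. No paired analysis was possible because the single list of a construct carries no replicate number, and leaving out replicates was likewise not possible.

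Shares of genes with at least 1 peak moved with list length. All shares in this section are of the family, and those of all protein-coding genes were not recomputed. With the higher-scoring 50% of each list, the FOXA1 share was 31.25%, the FOXA1dbd share 4.58%, the FOXA1nhaa share 22.9%, the FOXA1rraa share 18.8% and the HNF4A share 43.8%. With an equal number of highest-scoring peaks they were 12.5% for FOXA1, 14.6% for FOXA1nhaa and 15.8% for FOXA1rraa, and the density ratio of FOXA1 against the other genes of the chromosome was 1.02. The down-sampled list gave 20.8% for FOXA1, and the rows of the commonest peak-name prefix gave 17.1% for the FOXA1rraa list. In these windows, FOXA1rraa rows not named Nonspecific_FOX are all rows of the FOXA1 or FOXA1nhaa list. The 17.1% is therefore not a value of FOXA1rraa alone. The median number of peaks became 1 for FOXA1 with 10 kb either side and 0 for HNF4A with the top 50%.

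Shares with a start peak were small for the FOXA1 constructs and moved with the distance, by construction of the rule. Within 500 bp they were 2.92% for FOXA1, 0.417% for FOXA1dbd and 2.50% for FOXA1nhaa. Within 2500 bp they were 15.8% for FOXA1, 3.33% for FOXA1dbd, 12.1% for FOXA1nhaa and 10.8% for FOXA1rraa. At the 5′ end of the gene record alone they were 3.75%, 0.417%, 3.33% and 1.25% in that order. With the top 50% by score they were 5.0%, 0.417%, 1.67% and 0.833%, and 35.4% for HNF4A. With equal numbers they were 0.417% for FOXA1, 1.25% for FOXA1nhaa and 0.833% for FOXA1rraa, and with the down-sampled list 2.50% for FOXA1. The commonest prefix of the FOXA1rraa list gave 0.833%, again from rows of another list. The HNF4A share stayed between 49.2% and 65.4% in the other settings.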
